A study of Homo sapiens with 36 samples.

Results

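The transcripts of the NF-κB subunits and of the inhibitors that NF-κB itself induces were followed through chronic IL-1β exposure and IL-1β withdrawal. The 10 genes, NFKBIA, NFKBIB, NFKBIE, NFKB1, NFKB2, RELA, RELB, REL, TNFAIP3 and BCL3, were chosen by name and found through their Ensembl identifiers, 10 of the 63677 genes listed, and all 10 had enough reads to be tested. The cells were A549, an established human lung adenocarcinoma line kept in RPMI with 10% FBS and split every few days. Cells were given IL-1β at 1 ng/ml for 6, 15 or 21 days, or were exposed for 21 days and then cultured without it for 6, 15 or 30 days, and untreated control cells were collected beside each. Each of these 12 groups had 3 libraries, and the labels give no genetic change in any group.

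NF-κB is a family of dimeric transcription factors built from RELA, RELB, REL and the processed products of NFKB1 and NFKB2. In resting cells the IκB proteins hold the dimers in the cytoplasm. IL-1β signalling through MYD88, the IRAK kinases and TRAF6 activates the IKK complex, which marks IκB for destruction and releases the dimers. Several inhibitors of the pathway are themselves NF-κB targets, so that their transcripts are commonly read as a sign of its activity.

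Each library held between 9116032 and 23570026 reads counted on genes, and expression is given as CPM, the count scaled to the library's total, after TMM scaling of the library sizes. Keratin genes KRT8 and KRT18 and the E-cadherin gene CDH1 were expressed in all 36 libraries, whereas 2 of the 5 markers listed for the line were low, with EPCAM at 0.232 to 1.62 CPM and KRT19 at 0 in 16 libraries. The 5 markers summed to 2897 to 7615 CPM in control libraries (median 5115) and to 898 to 5136 CPM in IL-1β libraries (median 1732), and the part of this difference in the results below was not tested. The leukocyte marker CD3E was at 0 in all 36 libraries and PTPRC was at 0 in 22. The leukocyte markers together reached 2.06 to 10.6 CPM in control libraries and 2.62 to 16.9 CPM in IL-1β libraries, most of it CD14. Endothelial markers summed to at most 0.347 CPM and fibroblast markers to at most 4.19 CPM. Mitochondrial genes held a high share of the counts in 11 libraries, 11.8% to 24.6%, where the other 25 had 5.61% to 7.75%. Of these 11, 6 were control and 5 were IL-1β libraries, 8 carried replicate number 2 and 8 came from the withdrawal period. Fewer cells with a transcript and less transcript per cell cannot be told apart in such bulk RNA.

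The promoters of several of the 10 genes hold the sequence that NF-κB binds, and these stretches are shown because their genes include 4 of the 6 that passed the adjusted test at day 6 of exposure. RefSeq promoter windows of build GRCh38.p14, cut to the 250 bases before each start and placed on GRCh37 by exact match, were found for 8 of the 10 genes, in 13 windows. RELB and NFKBIE had no entry. The 10-base κB consensus was searched on both strands, and so was a narrower form, GGGA and TTCC with any 2 bases between them, matches to which are also matches to the consensus. The consensus was found in 7 of the 13 windows and in 6 of the 8 genes, and 9.96% of all 35116 promoters of the same length held it. The narrower form was found in 6 windows and also in 6 genes, against 1.40% of all promoters. A match describes letters only and is not evidence of binding in these cells. The windows of the genes with the largest responses follow, read 5′ to 3′ on the strand of the gene with the matches in capitals, TNFAIP3 from chr6:138188146-138188350 on the plus strand (205 bases, ended at the start of the annotated gene) and NFKBIA from chr14:35873956-35874205 on the minus strand, both GRCh37.
TNFAIP3: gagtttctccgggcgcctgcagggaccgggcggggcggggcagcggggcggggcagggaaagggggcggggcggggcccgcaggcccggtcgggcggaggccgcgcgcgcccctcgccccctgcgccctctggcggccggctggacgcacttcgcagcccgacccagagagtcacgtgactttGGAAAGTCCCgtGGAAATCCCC
NFKBIA: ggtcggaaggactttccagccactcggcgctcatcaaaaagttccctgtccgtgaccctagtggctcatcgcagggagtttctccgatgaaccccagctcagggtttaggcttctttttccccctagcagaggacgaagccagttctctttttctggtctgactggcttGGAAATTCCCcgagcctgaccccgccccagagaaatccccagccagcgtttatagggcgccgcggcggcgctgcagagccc

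Of the other genes, 30 bases around a match are given in the same way, 2 of the 4 stretches of NFKB2 among them, all on the plus strand of GRCh37, so that genes that rose can be set beside genes that did not. NFKB1 is from chr4:103422457-103422486, the first and last NFKB2 stretches are from chr10:104154218-104154247 and chr10:104155431-104155460 before different start sites, REL is from chr2:61108652-61108681, and NFKBIB is from chr19:39390571-39390600 before the second of its starts.
NFKB1: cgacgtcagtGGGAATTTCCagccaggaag
NFKB2, second start: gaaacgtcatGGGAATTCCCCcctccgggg
NFKB2, last start: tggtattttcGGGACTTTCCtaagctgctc
REL: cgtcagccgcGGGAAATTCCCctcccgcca
NFKBIB: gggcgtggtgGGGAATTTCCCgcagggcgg
No match lay in the RELA windows or the BCL3 window. NFKBIB holds a match to both forms and did not pass the test at any time.

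TNFAIP3 and NFKBIA, the principal feedback inhibitors, had the largest responses to IL-1β, and these responses were smaller after withdrawal. Both thresholds of the study, an adjusted p below 0.05 and a change of more than 2-fold, were passed by 5 of the 10 genes at day 6 of exposure, all of them higher: TNFAIP3, NFKBIA, NFKBIE, NFKB2 and RELB. Of all 19180 genes tested, 1.52% were higher by this rule. At days 15 and 21 it was 3 of 10, TNFAIP3, NFKBIA and NFKB2, with 1.94% and 2.19% of all genes higher. Without the 11 libraries of high mitochondrial share, which leaves some groups with 1 library, RELB and NFKBIE were also more than 2-fold higher at these days. After withdrawal 1 gene, TNFAIP3, was past both thresholds at day 6 (1.08% of all genes), 0 at day 15 (0.594%) and 1, again TNFAIP3, at day 30 (0.433%). At day 15 after withdrawal 5 of the 10 had an unadjusted p below 0.05, as did 1679 of the 19180 genes, and with total counts as the scaling 1 of the 10 and 210 of the 19180 were past both thresholds. By edgeR's adjusted p alone 6, 4 and 4 of the 10 were higher at days 6, 15 and 21 of exposure, against 2.29%, 3.32% and 3.31% of all genes, and 2, 1 and 2 after withdrawal, against 1.62%, 0.85% and 0.683%. The median log2 fold change over the 10 genes was 1.15, 0.90 and 0.84 at days 6, 15 and 21 of exposure and 0.48, 0.39 and 0.60 at days 6, 15 and 30 after withdrawal, while the median over all genes lay between -0.02 and 0.02. All 3 IL-1β libraries lay above all 3 controls in 7, 5 and 10 of the 10 genes during exposure, against 10.6%, 11.5% and 13.8% of all genes, and in 3, 3 and 6 of them after withdrawal, against 5.51%, 6.02% and 6.78%.

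**Figure D1:**
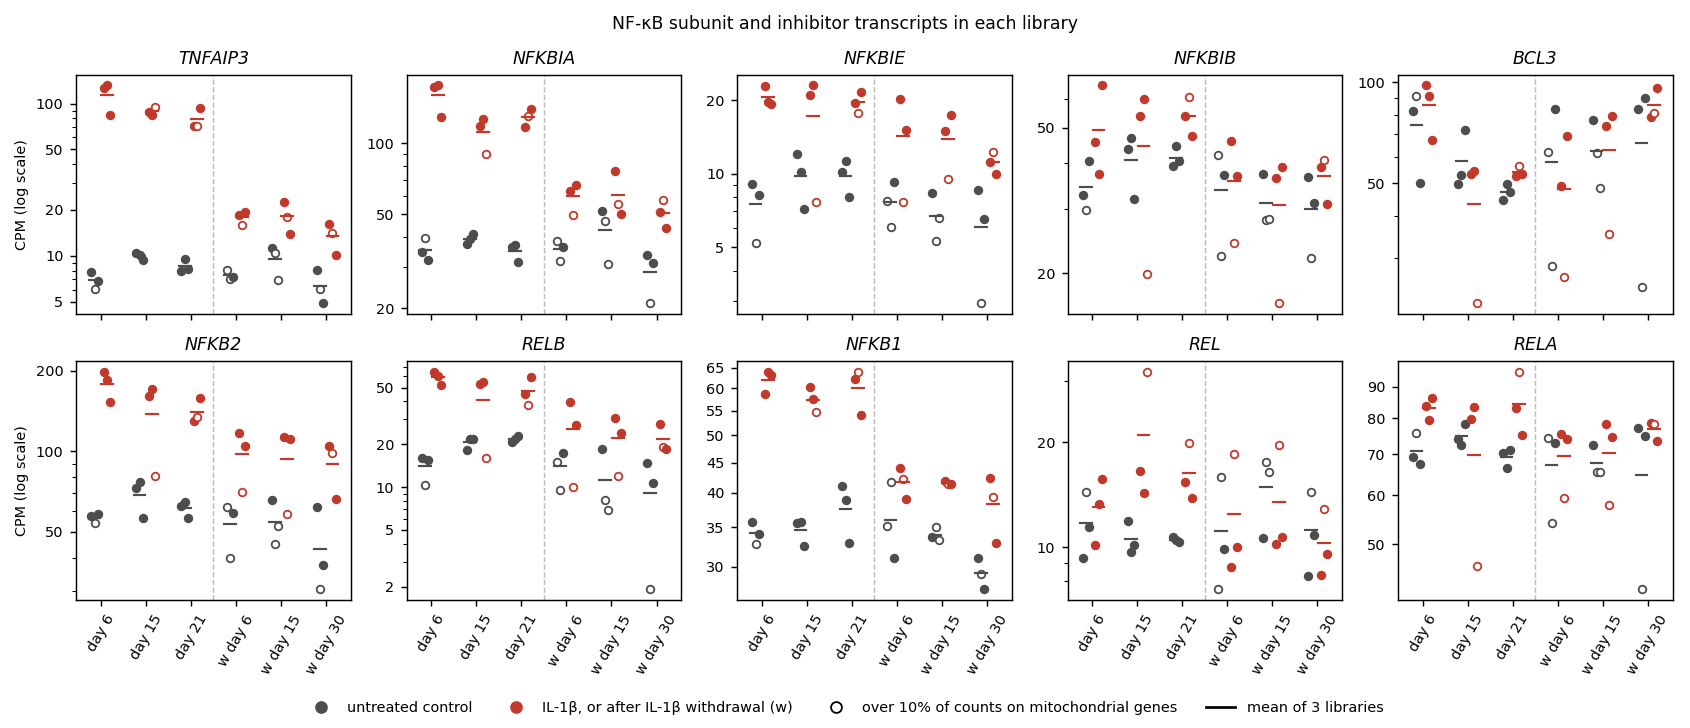
CPM of each of the 10 genes on log axes in the 36 libraries by time, in untreated control cells (grey) and in cells exposed to IL-1β or withdrawn from it (red), with lines at the means of 3 libraries and open symbols for the 11 libraries of high mitochondrial share. TNFAIP3 and NFKBIA separate fully during exposure and move toward the controls after withdrawal, whereas RELA and BCL3 overlap with their controls at most times.

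TNFAIP3 encodes A20, a ubiquitin-editing enzyme that switches off signalling upstream of IKK, and it had the largest response of the 10 genes (ENSG00000118503, GRCh37 chr6:138188351-138204451, plus strand). At day 6 of exposure it was at 7.84, 6.08 and 6.79 CPM in the controls and at 127, 132 and 84.7 CPM with IL-1β. By day 15 the controls were at 10.4, 10.2 and 9.39 CPM and the exposed cells at 88.1, 84.1 and 94.7 CPM. At day 21 these were 7.91, 9.46 and 8.23 CPM against 70.9, 71.0 and 94.3 CPM. Every exposed library lay above every control library at these times. The log2 fold change was 4.05 ± 0.23 (standard error, SE; n = 3 against 3; adjusted p 1.18e-12), 3.15 ± 0.22 (adjusted p 9.68e-11) and 3.21 ± 0.22 (adjusted p 4.74e-11). The day 21 response was lower than that of day 6 by 0.84 ± 0.29 on the log2 scale, which did not pass the adjusted test (adjusted p rounded to 1).

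After withdrawal TNFAIP3 was still higher than in controls, at a much lower level. At the first collection after withdrawal the controls were at 8.11, 6.99 and 7.21 CPM and the formerly exposed cells at 18.5, 16.0 and 19.3 CPM. At day 15 the values were 11.3, 10.5 and 6.90 CPM against 22.5, 18 and 13.9 CPM, and at day 30 they were 8, 6.04 and 4.91 CPM against 16.2, 14.2 and 10.2 CPM. The groups did not overlap at any of the 3 times. The log2 fold changes were 1.27 ± 0.21 (adjusted p 0.00047), 0.92 ± 0.21 (adjusted p 0.0202) and 1.09 ± 0.21 (adjusted p 0.00503). The call at day 6 held whichever single library was left out, but was lost in a separate fit of the 6 libraries of that day (adjusted p 0.12) and with replicate number 1 (0.0824) or 2 left out of all groups. At day 15 it was lost without control replicate 2 or 3 or IL-1β replicate 1 or 2, with adjusted p up to 0.216, and with the high mitochondrial libraries left out (log2 fold change 0.69, adjusted p 0.703). At day 30 it was lost without control replicate 3 (adjusted p 0.0816) or IL-1β replicate 1 (0.0689), and without the high mitochondrial libraries (log2 fold change 1.03, adjusted p 0.0842). That fit leaves some groups with 1 library, which is assumed to vary like the other groups. With a replicate number left out of all groups, the adjusted p of TNFAIP3 was 0.0152 to 0.532 at day 15 and 0.00442 to 0.384 at day 30. In the separate fits of day 30 it was up to 0.558. Between day 21 and the first collection after withdrawal this response fell by 1.93 ± 0.30 on the log2 scale (adjusted p 0.000983), the 1 gene of the 10 to pass for that step, where 0.0886% of all genes fell.

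NFKBIA encodes IκBα, the inhibitor that is degraded and resynthesised in the classical feedback loop, and it had the next largest response (ENSG00000100906, chr14:35870285-35873955, minus strand). The controls were at 34.4, 39.8 and 31.9 CPM at day 6 of exposure and the exposed cells at 174, 176 and 130 CPM. At day 15 these were 37.5, 39.2 and 41.3 CPM against 118, 126 and 90.1 CPM, and at day 21 they were 36.4, 37.1 and 31.3 CPM against 117, 131 and 140 CPM. Again no exposed library overlapped a control. IL-1β changed NFKBIA by log2 values of 2.17 ± 0.20 (adjusted p 1.54e-08), 1.5 ± 0.19 (4.06e-06) and 1.89 ± 0.20 (1.14e-07), and each held with any 1 library left out.

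After withdrawal NFKBIA stayed within 2-fold of the controls. At day 6 it was at 38.6, 31.7 and 36.2 CPM in controls and at 62.9, 49.4 and 66.4 CPM in withdrawn cells, and at day 30 at 33.6, 21.1 and 31.0 CPM against 51.1, 57.5 and 43.8 CPM. Neither pair of groups overlapped. At day 15 the controls, at 51.4, 46.8 and 30.7 CPM, overlapped with the withdrawn cells at 76.0, 55.3 and 50.1 CPM. On the log2 scale NFKBIA was higher by 0.75 ± 0.19 at the first of these times (adjusted p 0.0274), 0.49 ± 0.19 at the next (0.345) and 0.82 ± 0.19 at the last (0.0241). The day 6 call was lost without any 1 of the 3 control libraries or of IL-1β replicates 1 and 3 (adjusted p up to 0.141). The day 30 call was lost without control replicate 2 or 3 or IL-1β replicate 1 or 2 (adjusted p up to 0.188). With a replicate number left out of all groups, the adjusted p was 0.118 to 0.492 at day 6 and 0.023 to 0.94 at day 30. Without the high mitochondrial libraries the day 30 value was 0.56 (adjusted p 0.159).

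NFKBIE encodes IκBε, an inhibitor with slower kinetics than IκBα (ENSG00000146232, chr6:44225903-44233525, minus strand). With IL-1β for 6 days NFKBIE was at 22.7, 19.6 and 19.3 CPM, and it was at 9.08, 5.21 and 8.14 CPM in controls. The log2 fold change was 1.45 ± 0.36 (adjusted p 0.0132), and the call was lost without control replicate 2 (adjusted p 0.112) or IL-1β replicate 1 (0.0551). It was also lost whichever replicate number was left out of all groups (adjusted p 0.0552 to 0.255). At day 15 the exposed cells were at 21.0, 23.0 and 7.65 CPM against 12.1, 10.2 and 7.16 CPM, and at day 21 at 19.5, 17.6 and 21.6 CPM against 10.2, 11.2 and 8.04 CPM. The low exposed library at day 15, replicate 3, is one of those with a high mitochondrial share. Its log2 values were 0.82 ± 0.35 (adjusted p 0.207) and 1.00 ± 0.35 (0.104). Without the high mitochondrial libraries they were 1.17 (adjusted p 0.000141) and 1.09 (0.00028).

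After withdrawal NFKBIE had log2 fold changes of 0.90, 1.04 and 0.86 at days 6, 15 and 30, none past the adjusted test at a single time (adjusted p 0.291, 0.216 and 0.433). Withdrawn cells were at 20.2, 7.64 and 15.1 CPM against 7.73, 6.04 and 9.26 CPM at day 6. They were at 14.9, 9.52 and 17.3 CPM against 8.30, 5.30 and 6.59 CPM at day 15, and at 11.2, 12.3 and 10.0 CPM against 8.59, 2.96 and 6.48 CPM at day 30. The groups overlapped at day 6 and were separate at days 15 and 30.

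NFKBIB, which encodes the more stable inhibitor IκBβ, and BCL3, an atypical nuclear IκB that can act with p50 and p52 dimers, did not pass the test at any time. NFKBIB (ENSG00000104825, chr19:39390340-39399533, plus strand) ranged from 29.9 to 47.0 CPM with a median of 40.4 in the 9 control libraries of the exposure period and from 19.9 to 65.2 CPM with a median of 53.6 in the exposed cells. Its mean log2 response over exposure was 0.34 (95% interval -0.02 to 0.71, adjusted p 0.279), and without the high mitochondrial libraries it was 0.41 (adjusted p 0.00724). BCL3 (ENSG00000069399, chr19:45250962-45263301, plus strand) ranged from 44.7 to 91.2 CPM (median 50.3) in controls and from 22.1 to 97.8 CPM (median 54.4) in exposed cells. Its mean log2 response over exposure was -0.01 (95% interval -0.46 to 0.45). Under 2% of the NFKBIB exons, 1.72%, lie opposite SIRT2, and 1.47% of those of TNFAIP3 lie opposite WAKMAR2, where reads cannot be assigned if strand was not used in counting.

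NFKB2 was past both thresholds at each time of exposure. It encodes p100, which acts as an inhibitor until it is processed to p52, the partner of RELB in the non-canonical pathway (ENSG00000077150, chr10:104153867-104162281, plus strand). Controls of day 6 were at 57.4, 54.0 and 58.1 CPM and exposed cells at 199, 185 and 153 CPM. At day 15 it was at 73.1, 76.6 and 56.2 CPM against 161, 171 and 81.0 CPM, and at day 21 at 62.5, 64.7 and 56.6 CPM against 129, 134 and 158 CPM. Each exposed library was above each control. In log2 terms NFKB2 rose by 1.66 ± 0.28 (adjusted p 0.000214), 1.01 ± 0.27 (0.0216) and 1.2 ± 0.28 (0.00489). The day 15 call was lost without control replicate 1 or 3 or IL-1β replicate 1 or 2 (adjusted p 0.0517 to 0.142), in a separate fit of that day (0.161) and with total counts (0.138). It was also lost whichever replicate number was left out of all groups (adjusted p 0.0651 to 0.293). The day 21 call was lost with total counts (0.0524) and with replicate number 1 (0.105) or 3 (0.0994) left out of all groups.

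After withdrawal NFKB2 was at 118, 70.8 and 105 CPM against 61.7, 40.0 and 58.9 CPM in controls at day 6, and at 113, 58.3 and 111 CPM against 66.0, 45.0 and 52.4 CPM at day 15. At day 30 it was at 105, 98.8 and 66.4 CPM against 61.7, 30.6 and 37.5 CPM. Withdrawn cells lay above controls without overlap at days 6 and 30 and overlapped with them at day 15. The log2 fold changes of 0.87 ± 0.28, 0.79 ± 0.27 and 1.05 ± 0.28 did not pass at a single time (adjusted p 0.103, 0.231 and 0.0526). At day 30 NFKB2 passed without control replicate 1 (adjusted p 0.0133) or IL-1β replicate 3 (0.027). It also passed with DESeq2 (0.0141), with the likelihood ratio test and with the mitochondrial share as a covariate (0.00293). It did not pass with any other single library left out (adjusted p up to 0.306) or with any replicate number left out of all groups (0.167 to 0.709).

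RELB, the subunit that pairs with p52 or p100, had the highest single response among the subunits and the widest spread (ENSG00000104856, chr19:45504719-45541450, plus strand). At day 6 of exposure it was at 16.1, 10.3 and 15.5 CPM in controls and at 64.9, 60.7 and 52.4 CPM with IL-1β. The log2 fold change was 2.08 ± 0.50 (adjusted p 0.0111), and it did not pass without control replicate 2 (adjusted p 0.0846). At day 15 RELB was at 18.3, 21.8 and 21.8 CPM against 53.2, 54.6 and 16.0 CPM, and at day 21 at 20.7, 21.6 and 22.7 CPM against 45.2, 37.8 and 59.5 CPM. The exposed library of day 15 that lay below all its controls, replicate 3, had a high mitochondrial share, and at day 21 the groups were separate. RELB had log2 fold changes of 1.00 ± 0.49 (adjusted p 0.288) and 1.13 ± 0.49 (0.248). After withdrawal it was at 39.4, 10.1 and 27.4 CPM against 15.1, 9.58 and 17.4 CPM at day 6. It was at 30.7, 12 and 24.1 CPM against 18.5, 8.15 and 6.90 CPM at day 15, and at 27.7, 19.0 and 18.6 CPM against 14.7, 1.93 and 10.7 CPM at day 30. The groups were separate only at day 30, and the log2 fold changes of 0.88, 0.98 and 1.22 did not pass (adjusted p 0.67, 0.606 and 0.41). The day 30 value was 0.78 without control replicate 2, at 1.93 CPM, and it passed with the mitochondrial share as a covariate (1.40, adjusted p 0.00504) and without the high mitochondrial libraries (0.87, 0.0428).

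RELB was low in the libraries of high mitochondrial share. Among controls its median was 8.86 CPM in the 6 such libraries and 18.4 CPM in the other 12, and among IL-1β libraries it was 16.0 CPM in 5 and 45.2 CPM in 13. Without them RELB passed both thresholds at each time of exposure, with log2 fold changes of 1.93, 1.38 and 1.29 (adjusted p 1.01e-06, 1.39e-05 and 2.89e-05). NFKBIE followed the same order, with control medians of 5.67 and 8.84 CPM, and REL the opposite one, with 15.2 and 10.4 CPM. The order was not particular to RELB and NFKBIE. Control medians were 28.1 and 38.3 CPM for NFKBIB, 48.7 and 60.3 CPM for NFKB2 and 65.4 and 72.3 CPM for RELA. For NFKB1 they were 34.2 and 33.9 CPM. Among IL-1β libraries every gene but REL had its lower median in those of high share. These medians pool times: 3 of the 5 IL-1β and 5 of the 6 control libraries of high mitochondrial share come from the withdrawal period, where RELB was also lower, and at day 30 after withdrawal the IL-1β library of high share (19.0 CPM) was not the lowest. With the share as a covariate the RELB values at days 15 and 21 were 1.2 (adjusted p 0.00373) and 1.48 (0.000406).

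**Figure D2:**
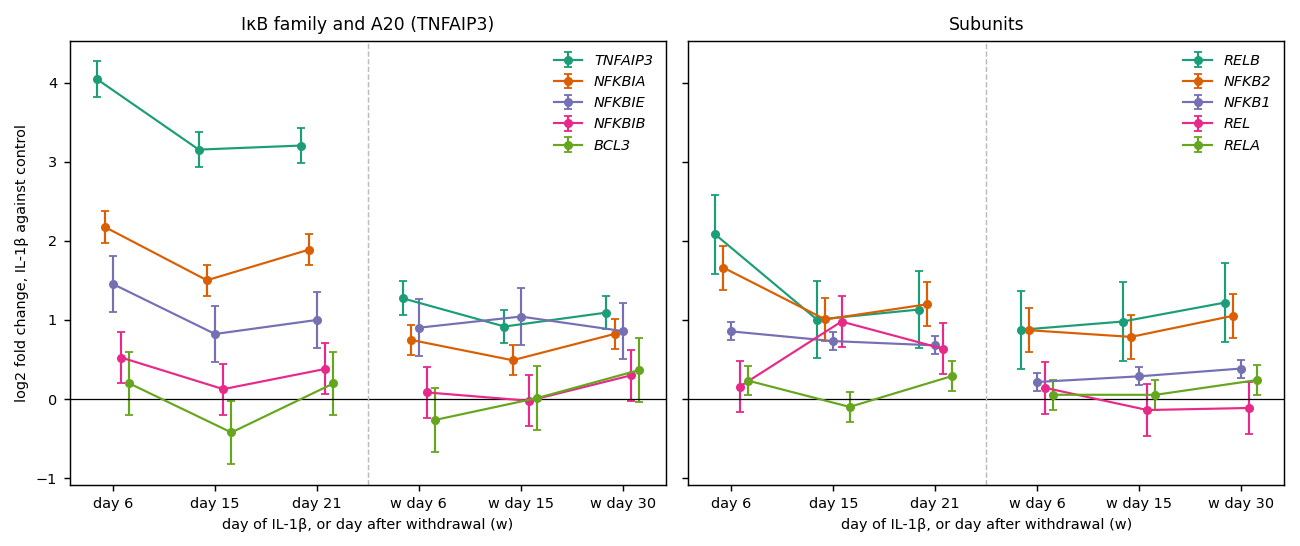
Log2 fold change of IL-1β against untreated control cells (y axis) at 3 times of exposure and 3 times after withdrawal (w), with bars of 1 SE, for the IκB family and A20 (left) and for the subunits (right). TNFAIP3 drops from 3.21 to 1.27 between day 21 and day 6 after withdrawal, whereas NFKBIE goes from 1.00 to 0.90 and RELB from 1.13 to 0.88.

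NFKB1, which encodes p105 and its product p50, changed less but with little spread between libraries (ENSG00000109320, chr4:103422487-103538459, plus strand). At day 6 of exposure it was at 35.8, 32.8 and 34.1 CPM in controls and at 58.7, 63.9 and 63.1 CPM with IL-1β. At day 21 it was at 41.0, 38.9 and 32.9 CPM against 62.3, 64.1 and 54.2 CPM. The log2 fold changes of 0.86 ± 0.11, 0.73 ± 0.11 and 0.68 ± 0.11 at days 6, 15 and 21 passed the adjusted test (9.04e-06, 5.63e-05 and 0.000151) at under 2-fold, and they did so with any 1 library left out. With a replicate number left out of all groups the adjusted p was up to 0.0158, 0.0507 and 0.0543 at these days. In the separate fits of day 15 it was up to 0.141. After withdrawal it had log2 fold changes of 0.22, 0.29 and 0.39, none of which passed (adjusted p 0.608, 0.364 and 0.108).

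RELA and REL encode the transactivating subunits of the canonical pathway. RELA (ENSG00000173039, chr11:65421070-65430561, minus strand) was at 66.3 to 78.3 CPM with a median of 71.0 in the controls of the exposure period and at 46.1 to 95.3 CPM with a median of 83.2 in exposed cells. Its mean log2 response was 0.14 over exposure (95% interval -0.07 to 0.35, adjusted p 0.519) and 0.12 after withdrawal (-0.10 to 0.33). Without the high mitochondrial libraries the exposure value was 0.21 (adjusted p 0.00121). REL (ENSG00000162924, chr2:61108626-61158747, plus strand) was at 9.34 to 14.4 CPM (median 10.5) in controls and at 10.1 to 31.9 CPM (median 15.3) in exposed cells, the highest in IL-1β replicate 3 at day 15, a library of high mitochondrial share. Its mean log2 response over exposure was 0.59 ± 0.19 (adjusted p 0.0286). That call was lost without any 1 of 7 libraries, namely control replicate 1 or IL-1β replicate 3 at day 6, control replicate 2 or 3 or IL-1β replicate 3 at day 15, or control replicate 3 or IL-1β replicate 2 at day 21 (adjusted p 0.0505 to 0.0982). An overlapping gene on the same strand covers 33.3% of the REL exons, so its counts are uncertain.

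To compare exposure with withdrawal directly, the 3 responses of each period were averaged in the same fit and their difference was tested. The fit takes the libraries of different times as independent. The labels do not say whether libraries of the same replicate number came from 1 culture followed over time, in which case these p-values would be too small. Over exposure 5 of the 10 genes were past both thresholds, against 2.51% of all genes, and 7 of 10 past the adjusted p alone, against 7.54%. After withdrawal TNFAIP3 and RELB were past both (1.43% of all genes), and 6 of 10 were past the adjusted p alone, against 4.43%. Those 6 were TNFAIP3 at 1.10 (adjusted p 2.92e-07), NFKBIA at 0.69 (7.02e-05), NFKB2 at 0.90 (0.000212), NFKBIE at 0.93 (0.00283), NFKB1 at 0.30 (0.00305) and RELB at 1.03 (0.0216). With replicate number 1 left out, NFKBIE had an adjusted p of 0.106 and NFKB1 of 0.383, and NFKB1 also did not pass without replicate number 2 (0.071) or with no filter on low counts (0.0528). The RELB p was over 0.05 without any 1 of 6 libraries, which were control replicate 2 and IL-1β replicate 1 at day 6, control replicates 2 and 3 and IL-1β replicate 1 at day 15, and IL-1β replicate 1 at day 30 (adjusted p 0.0523 to 0.0755). Without the high mitochondrial libraries it was 0.80 with an adjusted p of 0.000675, under 2-fold.

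The response of 3 of the 10 genes was smaller after withdrawal than during exposure by the adjusted test, where 1.12% of all genes fell, and 2 of them by more than 2-fold, where 0.574% did. TNFAIP3 went from 3.47 to 1.10, a fall of 2.37 ± 0.17 on the log2 scale (adjusted p 1.66e-10), and NFKBIA from 1.86 to 0.69, a fall of 1.17 ± 0.16 (1.75e-05). NFKB1 went from 0.76 to 0.30, a fall of 0.46 ± 0.09 (adjusted p 0.00339) that did not pass in 5 of the alternative fits. These were the fits without the high mitochondrial libraries (a fall of 0.38, adjusted p 0.0648), with no filter on low counts, with total counts (0.292) and without replicate number 1 (0.188) or 2 (0.161). TNFAIP3 thus kept 31.6% of its mean log2 response, NFKBIA 37.1% and NFKB1 39.2%. REL went from 0.59 to -0.04, a difference of -0.63 ± 0.27 that did not pass the adjusted test (adjusted p 0.334). NFKBIE kept 85.6%, RELB 72.9% and NFKB2 70.0%, and no difference was detected for them. Their differences were -0.16 (95% interval -0.72 to 0.41) for NFKBIE, -0.38 (-1.16 to 0.40) for RELB and -0.39 (-0.82 to 0.05) for NFKB2, so that a loss of up to 1.16 on the log2 scale lies within the RELB interval. For RELB the difference was -0.74 (adjusted p 0.0182) without the high mitochondrial libraries. Whether the kept shares differ between genes was not tested. In the alternative fits the difference lay between -0.38 and -0.05 for NFKBIE and between -0.56 and -0.28 for NFKB2. A kept share rests on the controls of its own period. Between the periods the RELB median went from 53.2 to 24.1 CPM in IL-1β cells and from 20.7 to 10.7 CPM in controls. That of NFKBIE went from 19.6 to 12.3 CPM and from 9.08 to 6.59 CPM. That of NFKB2 went from 158 to 105 CPM and from 58.1 to 52.4 CPM.

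**Figure D3:**
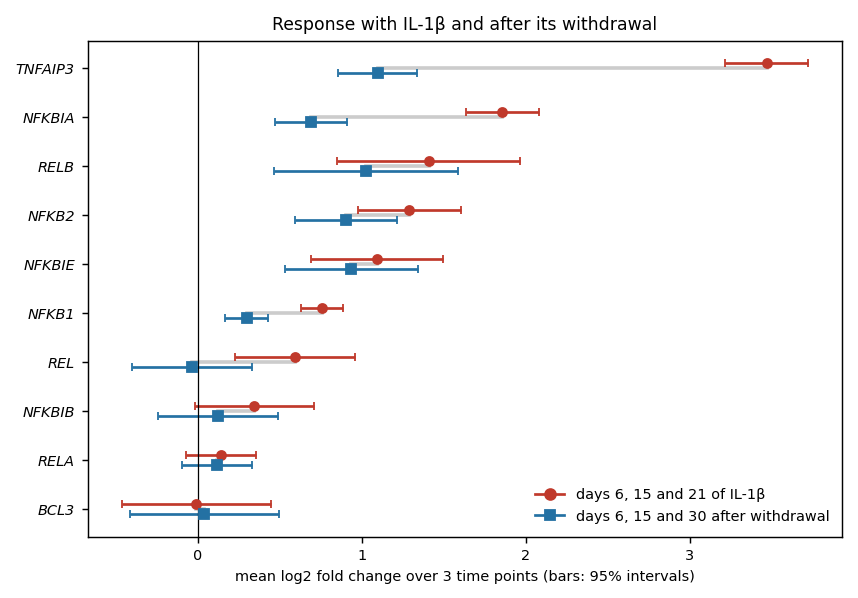
Mean log2 fold change of each of the 10 genes over the 3 times of exposure (red circles) and the 3 times after withdrawal (blue squares), with bars of 95% intervals. The intervals of TNFAIP3, NFKBIA and NFKB1 do not overlap between the periods, while those of NFKBIE, RELB and NFKB2 do.

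The remaining contrasts called none of the 10 genes. Between day 21 and day 6 of exposure 0 of 10 differed in response by edgeR's adjusted test (1 at an unadjusted p under 0.05, TNFAIP3), as did 0.0104% of all genes. Between day 30 and day 6 after withdrawal 0 of 10 differed (0 unadjusted), against 0.00521% of all genes. Untreated cells of the day 30 withdrawal collection did not differ detectably from those of day 6 of exposure in any of the 10 genes (0 past the adjusted test and 0 at an unadjusted p under 0.05, with 0.0104% of all genes called), with log2 differences from -0.58 ± 0.50 for RELB to -0.08 ± 0.33 for REL.

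The rank of the transcripts changed with IL-1β. On the scale of CPM per kilobase of annotated exon at day 21, untreated cells held most NFKBIB (17.8 ± 1.16, SD, n = 3), BCL3 (15.2 ± 0.80) and RELA (12.7 ± 0.46), followed by NFKB2 (11.0 ± 0.75) and NFKBIA (10.3 ± 0.93), which overlapped. Below these stood RELB at 7.23, NFKBIE at 3.80, NFKB1 at 2.40, TNFAIP3 at 1.32 and REL at 0.61. In exposed cells NFKBIA came first at 38.1 ± 3.39 CPM per kilobase, above NFKB2 at 25.2 ± 2.74 and NFKBIB at 23.2 ± 2.85, which overlapped with each other. TNFAIP3 reached 12.2 ± 2.09. These lengths include all annotated exons and lower NFKB1 most, from 9.27 CPM per kilobase in untreated cells by its canonical transcript to 2.40. With canonical transcripts NFKBIA stayed first in exposed cells at 83.0 CPM per kilobase and NFKBIB first in untreated cells at 34.7, but RELA (27.5) came before BCL3 (25.1) in untreated cells, NFKBIA (22.4) before NFKB2 (20.3) and NFKB1 before NFKBIE (4.19). TNFAIP3 overlapped with RELA in exposed cells by the longer lengths and not by the canonical ones, where they were at 16.9 and 33.6.

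Among the 5 subunits alone, NFKB2 took the place of RELA as the largest share with IL-1β. At day 6 of exposure the share of RELA in the summed CPM per kilobase was 42.4% ± 3.43 (SD, n = 3) in controls and 21.4% ± 2.38 with IL-1β. The share of NFKB2 was 33.0% ± 0.74 and 44.5% ± 2.43, and that of RELB 15.2% ± 3.17 and 27.5% ± 0.79. The RELA, NFKB2 and RELB shares did not overlap between the groups. With canonical transcript lengths the RELA share was 45.0% and 24.6%, and with no division by length it was 37.8% and 21.1%. At day 30 after withdrawal the RELA share was 47.4% ± 4.34 in controls and 35.1% ± 3.90 in withdrawn cells, and that of RELB was 10.8% ± 6.04 and 17.9% ± 2.5. A share moves with any of the 5 transcripts, and a lower RELA share here went with RELA levels that did not pass the test.

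**Figure D4:**
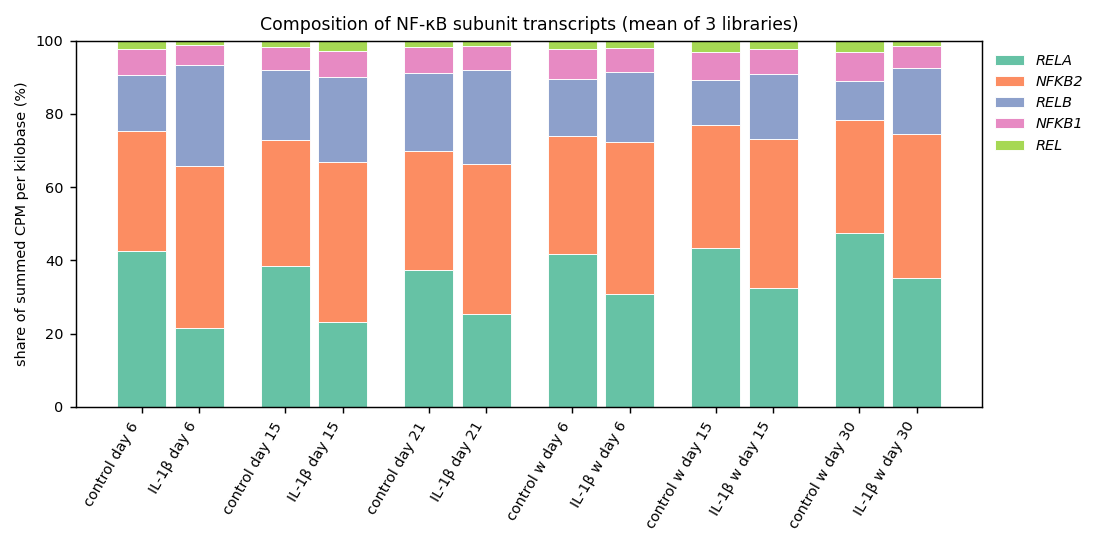
Share of each of the 5 subunit transcripts in their summed CPM per kilobase of annotated exon (%, mean of 3 libraries) in each of the 12 groups, with control and IL-1β bars side by side at each time. The RELA segment is shorter in IL-1β cells than in their controls at all 6 times, from 42.4% to 21.4% at day 6 of exposure.

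Over the 12 group means of log2 CPM, the genes that rose followed one another. Pearson's r was 0.99 between NFKBIA and TNFAIP3, 0.98 between NFKBIE and NFKB2 and 0.96 between NFKBIE and RELB, while BCL3 lay between -0.37 and 0.49 with the other members. NFKBIB, which did not pass at any time, lay between 0.69 and 0.84 with TNFAIP3, NFKBIA, NFKBIE, NFKB1, NFKB2 and RELB. RELA, which did not pass either, lay between 0.63 and 0.79 with them. These values describe 12 means that share treatment, time and libraries. Among 13504 other genes, the patterns most like TNFAIP3 were those of NAMPTP1 (r = 0.994), C15orf48 (0.991) and NAMPT (0.988), and those most like NFKBIA were SLC25A37 (0.985), C15orf48 (0.980) and NAMPTP1 (0.976). NFKBIE was nearest to TRIM25 (0.991), TPD52L2 (0.990) and TNFRSF10B (0.987), NFKB2 to SLC37A1 (0.984) and PLPP3 (0.979), and RELB to AKR1B1P7 (0.988), AKR1B1 (0.976) and TPRA1 (0.975). NAMPTP1 and AKR1B1P7 are pseudogenes whose reads may come from NAMPT and AKR1B1.

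Other genes of the pathway were taken from lists of its negative regulators, of IKK and other signalling proteins, and of its targets. Both atypical IκB genes were higher at day 21, NFKBIZ with a log2 fold change of 1.84 (adjusted p 4.8e-06) and NFKBID with 1.36 (0.038), and 0 of 2 were past the thresholds at any time after withdrawal. Of 14 other negative regulators tested of 16 listed, 3 were higher at each time of exposure and 0 were past both thresholds at any time after withdrawal. Of all genes 1.52%, 1.94% and 2.19% were higher at days 6, 15 and 21 of exposure by both thresholds, and 1.08%, 0.594% and 0.433% at the times after withdrawal, and the counts of the lists that follow have the same background. The 3 were ZC3H12A, an RNase that degrades cytokine transcripts, at 3.41 at day 21, TNIP3 at 3.17 from few reads, and TNIP1, an A20 binding partner, at 1.64. The list median was 0.24 at day 21, where the median of all genes was -0.01.

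In the list of IKK and other signalling proteins, 22 of 24 genes were tested. Of them 3, 4 and 3 were higher at days 6, 15 and 21 of exposure. TRAF1, an adaptor of the TNF receptor family, was higher at all 6 times, with log2 fold changes of 3.00, 2.27 and 2.45 during exposure and of 2.61, 2.01 and 2.03 after withdrawal (adjusted p 0.0031, 0.038 and 0.046). Its mean response was 2.57 over exposure and 2.22 after withdrawal, a difference of -0.36 ± 0.41 (adjusted p 0.71). The fourth gene at day 15 was BIRC2 at 1.06, named after its value was seen. IRAK2 and BIRC3 were higher at the 3 times of exposure, at 2.03 and 1.38 at day 21, and were not past the thresholds after withdrawal. MAP3K8, a kinase bound by p105, was lower at day 6 after withdrawal, with a log2 fold change of -1.42 ± 0.27 (adjusted p 0.0015), and at day 30 with -1.05 ± 0.26 (0.037), and its value of -0.90 at day 15 did not pass (0.0957).

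Of the target genes, 16 of 18 listed were tested, and 15, 14 and 13 of them were higher at days 6, 15 and 21 of exposure, with list medians of 4.21, 3.91 and 3.97 on the log2 scale. After withdrawal 4, 2 and 2 were higher, and the list medians were 0.66, 0.37 and 0.36. CXCL8 had a log2 fold change of 6.91 at day 21 and of 1.36, 0.02 and -0.97 after withdrawal, none of these past the test. CCL20 (5.57 at day 21) and IL6 (5.55) stayed higher at each time after withdrawal, at 2.12, 2.39 and 2.34 and at 3.03, 2.49 and 2.74. CCL2 was higher at day 6 after withdrawal alone of those times (1.62, adjusted p 0.019), as was SAA1, which had no read in the 3 controls of that day.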

How the data were processed

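Poly(A) RNA libraries of 36 A549 cultures (KAPA stranded mRNA kit) were sequenced as single-end reads. The authors aligned reads to GRCh37 and deposited raw counts per Ensembl gene, not normalized. The submitters' processing notes name TopHat2 2.0.14, Bowtie2 2.2.5, HTSeq 0.6.1 and bcl2fastq 2.17. The strand setting and annotation release are not given in the sources used here. Groups and replicate numbers came from the labels, and no label says that replicates were separate cultures, so p-values measure the spread between these libraries, which may be technical. No 2 libraries were identical. Reads on no gene (8.48% to 18.6% of all counted) and ambiguous reads (2.62% to 4.18%) were left out.

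The 19180 of 63677 genes kept by filterByExpr were fitted with edgeR 4.0.16 (R 4.3.3) in 1 quasi-likelihood model of 36 libraries and 12 groups (24 residual degrees of freedom, TMM scaling), and p-values were adjusted by Benjamini-Hochberg over all genes tested. Genes were counted past both thresholds at an adjusted p under 0.05 and a fold change over 2, as in the study, and a single value is said to pass, or its call to be lost, by the adjusted p alone. The 95% intervals use the normal approximation. Log2 CPM used a prior count of 2. On simulated counts with 200 of 19180 genes set 2 higher or lower on the log2 scale at day 21, 193 were recovered with 7 false calls.

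Gene positions are from GENCODE v44lift37. All 10 genes are named. Genes of other lists are named if called at 1 or more times, at most 3 per list by their day 21 change, together with those called after withdrawal. The 3 most similar patterns were sought among genes with a mean log2 CPM of at least 1. Some items are not reported here. The genes, lists and tests were chosen with earlier results of these data known. Alternatives were other scalings, filters, tests (DESeq2 1.42.0 among them), thresholds and designs, and each library or replicate number left out. Leaving libraries out of the period means and canonical transcript lengths were added after seeing the data. SOD2 and PECAM1 were not matched to an identifier and are not used here.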

Additional observations from a re-analysis of the deposited data

Results flagged for a closer look

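The difference between the response after withdrawal and that during exposure passed the adjusted test for 3 of the 10 genes, and these are given here because the same contrast gave different effects in the 2 periods. The difference of mean log2 responses was -2.37 for TNFAIP3, -1.17 for NFKBIA and -0.46 for NFKB1. For TNFAIP3 the step from day 21 of exposure to day 6 after withdrawal also passed, at -1.93. The NFKB1 difference did not pass in 5 of the alternative fits, with adjusted p from 0.0648 without the libraries of high mitochondrial share to 0.292 with total counts.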

How the results depend on the processing

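Alternatives were run for the 10 genes at the 6 times, for both means and for their difference, and no called value among these changed sign. The step from day 21 to day 6 after withdrawal and the genes of the other lists were not run under them. Counts of the 10 genes past both thresholds that moved by over 1.5 times were as follows. For day 6 of exposure (5) the count was 3 at an adjusted p under 0.01, and 3 to 5 with a library or replicate number left out. For day 15 (3) it was 5 when the 11 libraries of high mitochondrial share were left out and 2 to 4 with a library left out. For day 21 (3) it was 5 with the high mitochondrial share as a covariate and in a separate fit of the time point. It stayed 3 with any single library of that day left out and was 2 to 3 with a replicate number left out. For day 6 after withdrawal (1) it was 0 in the separate fit and 2 by the adjusted p alone. There it stayed 1 with any single library of that day left out and was 0 to 1 with a replicate number left out. For day 15 after withdrawal (0) it was 1 with total counts, 1 by the adjusted p alone and 0 to 1 with a library left out. For day 30 after withdrawal (1) it was 2 with DESeq2, the likelihood ratio test or the adjusted p alone, 3 with the covariate, 0 in the separate fit, 0 when the libraries of high mitochondrial share were left out, and 0 to 2 with a library left out. The mean over exposure (5) gave 5 to 5 and the difference of the means (2) gave 2 to 2 with a library left out. The mean after withdrawal (2) gave 1 with the covariate, without those libraries and at an adjusted p under 0.01, 4 with total counts, 6 by the adjusted p alone and 1 to 4 with a library left out. The cause of these moves was not tested. Over all genes, in either direction, 817 of 19180 passed both thresholds at day 21 of exposure. That was 1004 with the covariate and 967 of 17309 in the separate fit. At day 30 after withdrawal 172 passed, 314 with the covariate and 0 in the separate fit. DESeq2 gave 218 there and the likelihood ratio test 239. In the mean after withdrawal 458 passed, 490 with the covariate and 484 with total counts. Total counts shifted the median of all genes by 0.19 at day 15 after withdrawal, 0.12 in the mean after withdrawal and 0.12 in the difference.

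Same-numbered control and IL-1β libraries deviated together in 14 of 18 pairs at r over 0.1 (mean 0.28, -0.34 to 0.72), and since not all pairs did, the numbers were not taken as pairs by design. As a hint from the data, 16 of 18 control libraries correlated best with the IL-1β library of their own number. With the replicate block the count was 1 at day 15 of exposure in the separate fit, 5 at day 21 in the separate fit and with the covariate, 2 at day 30 after withdrawal in the joint fit by either block, with NFKB2 added (adjusted p 0.0169 and 0.00209), 3 there with the covariate and 0 in the separate fit, and 1 in the mean after withdrawal with the covariate. It moved no other count of calls by over 1.5 times. Over all genes, in either direction, the separate fit with the block called 74 of 17275 at day 15 of exposure. At day 21 it called 1018 of 17309. At day 30 after withdrawal the joint fits with a block called 218 and 263 of 19180, and 345 with the covariate.

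With 3 libraries a group, the log2 fold change of 1.22 in RELB at day 30 after withdrawal passed in 3 of 16 settings and was 0.78 to 1.71 with a library left out.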
